A study of Mus musculus with 12 samples.

Results

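Among the genes that PMA and calcium ionophore (PMA/I) raised in CD4 T blast cells, 10 genes whose level after PMA/I was higher in cells deprived of IL-2 were examined. They are *4930417O13Rik*, *Cd83*, *Gfi1*, *Prr7*, *Zbtb10*, *Mir155hg*, *Trib2*, *Abtb2*, *Tgif1* and *Vsir*, out of 24439 gene names in the tables and 12442 genes tested. They were chosen by name, on 2 measures of these libraries, namely the response to PMA/I and the difference between TB+ IL-2nil and TB+ IL-2. Both of these are therefore described here and not tested. What the choice did not use directly is the difference that IL-2 withdrawal made at rest, before PMA/I. The choice was, however, made with earlier results of these data known.

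The data are RNA-Seq of 12 cultures in 4 groups of 3. Splenic CD4 T cells of C57BL/6 C42 mice, which all carry a transgenic fragment of the human *IL3/CSF2* locus, were activated with 2 µg/ml concanavalin A for 40 h and then expanded in 50 U/ml IL-2, for 30 h by the methods and for about 2 days by the sample labels. They were kept for a further 16 h with IL-2 (TB IL-2) or without it (TB IL-2nil), and PMA at 20 ng/ml with 2 µM ionophore was added for 2 h to give TB+ IL-2 and TB+ IL-2nil. No group was left without concanavalin A, and the sources do not say whether the cultures of a group came from separate mice, so P-values measure the spread between cultures.

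IL-2 binds a receptor on activated T cells that signals through JAK kinases to STAT5 and keeps the blasts dividing. PMA activates protein kinase C, and the ionophore lets calcium into the cell and so activates calcineurin and NFAT; together they stand in for a signal through the T cell receptor and switch on inducible genes within hours. The 10 genes have different jobs. GFI1, ZBTB10 and TGIF1 are DNA-binding proteins that repress transcription, and TRIB2 is a pseudokinase that brings target proteins to the ubiquitin ligase COP1. CD83, VSIR (the checkpoint receptor VISTA) and PRR7 lie in the cell membrane, ABTB2 carries ankyrin repeats and a BTB domain, *Mir155hg* is the primary transcript of the microRNA miR-155, and *4930417O13Rik* is a long non-coding RNA for which no role is given here.

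The libraries labelled TB IL-2nil replicate 3 and TB+ IL-2 replicate 3 go against their labels. For *Il2*, an inducible cytokine gene, the first held 1368 FPKM and the second 0.290 FPKM, while the other 5 PMA/I libraries held 1095 to 2374 FPKM and the other 5 resting libraries 0 to 1.18 FPKM. The study's own table of differentially expressed genes lists the values of each under the other's heading. The exchanged placement was used for every value below, and results are also given with the labels as deposited and without both libraries. Read counts were not used here, but the steps between low values gave a relative depth of 0.409 (TB IL-2nil replicate 2) to 1.25 times the median library. T cell markers (7 of 7 detected) summed to 2003 to 2788 TPM in every library. Markers of NK cells stayed at or below 0.303 TPM, with *Ncr1* at 0 throughout, and the 9 myeloid and dendritic cell markers summed to at most 5.85 TPM. The 2 CD8 T cell markers summed to 6.91 to 31.9 TPM, a range found within TB IL-2 alone. The 5 regulatory T cell markers, with *Tnfrsf18* the highest, summed to 240 to 381 TPM in TB IL-2 and 178 to 302 TPM in TB IL-2nil. After PMA/I they summed to 205 to 323 TPM in TB+ IL-2 and 253 to 313 TPM in TB+ IL-2nil.

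In every member the mean level stepped up in the same order, from TB IL-2 through TB IL-2nil and TB+ IL-2 to TB+ IL-2nil. The shares of all genes with this order, or with overlap between TB IL-2nil and TB+ IL-2, were not counted. Both are therefore given as a description of the members. Levels are in TPM (a share of transcripts corrected for gene length) after scaling to a common upper quartile. From the lowest to the highest group the ratio of means ran from 9.28-fold in *Trib2* to 158-fold in *Mir155hg*. The choice of the genes fixes the upper part of this order, but not the place of TB IL-2nil relative to TB IL-2 or TB+ IL-2. Neighbouring groups overlapped between TB IL-2 and TB IL-2nil in 3 genes (*Cd83*, *Gfi1* and *Mir155hg*) and between TB IL-2nil and TB+ IL-2 in 4 (*Prr7*, *Trib2*, *Abtb2* and *Vsir*). The latter overlap rested on the exchanged libraries in all but *Trib2*. Without both of them 1 of the 10 genes still overlapped there, *Trib2*, with 91.8 to 135 TPM in TB IL-2nil and 134 to 141 TPM in TB+ IL-2.

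**Figure D1:**
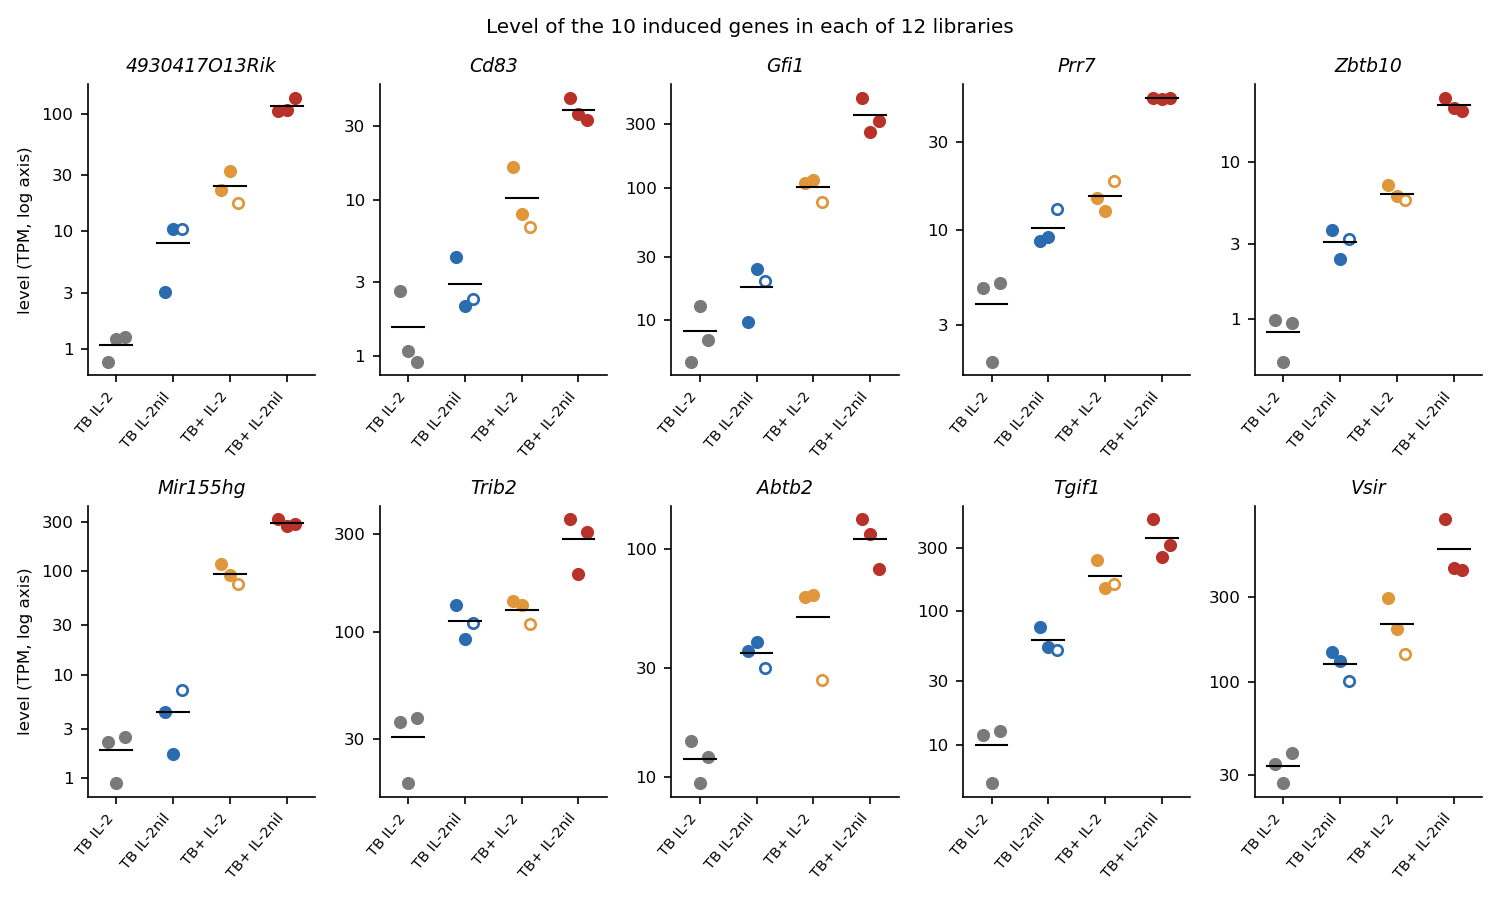
Level of each gene in TPM (log axis) in 12 libraries, in 4 groups of 3. Horizontal bars are group means, and open circles mark the 2 libraries placed in each other's group. Every TB+ IL-2nil library lies above every TB+ IL-2 library. The choice of genes favoured this by asking for a higher level there, and the share over all genes was not counted. *Trib2* in TB IL-2nil (91.8 to 135 TPM) reaches into its range in TB+ IL-2 (109 to 141 TPM).

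By ratio of group means, the largest resting changes were those of *4930417O13Rik*, *Tgif1*, *Zbtb10*, *Vsir* and *Trib2*, which IL-2 withdrawal raised by 3.68- to 7.42-fold without any PMA/I. At rest, 7 of the 10 genes were higher in TB IL-2nil than in TB IL-2 at an adjusted P under 0.05 (limma over all genes, Benjamini-Hochberg), against 22.3% of all genes tested, and 17.3% of all genes were lower. With a change over 3-fold added, 4 of 10 passed, against 2.73% of all genes. None of the 10 was lower, and their median difference was 1.36 in log2(TPM + 1), beside 0.13 over all genes. The 3 libraries of the groups did not overlap in 7 of the 10 genes, and TB IL-2nil lay wholly above TB IL-2 in 30.4% of all genes. Limits come from the choice of genes, which was made with earlier results of these data known. The TB IL-2 libraries were also the baseline of the induction in IL-2, so a low value there favours both being chosen and being higher after withdrawal. The TB+ difference used in the choice also contains the resting difference. The resting comparison is therefore not independent of the choice.

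The resting counts depended on how the doubted libraries were treated. Without both libraries, 7 of 10 still passed, where 2216 of all 12360 genes tested were higher at rest. By the deposited labels 0 of 10 passed (limma, with 7 of 10 at an unadjusted P under 0.05 and no adjusted P below 0.0607). All 10 differences still stayed above 0, from 1.04 to 3.10. By those labels only 6 of all genes tested were higher at rest. Libraries with the same replicate number deviated together in the exchanged placement, and with the replicate number as a block all 10 genes passed. The block raised the calls in general, with 3666 of all 12442 genes tested higher at rest, against 2773 without it. The additional members were *Cd83* (adjusted P = 0.00747), *Gfi1* (0.0444) and *Mir155hg* (0.0439). Without the block these had adjusted P values of 0.16, 0.0504 and 0.0916 (limma).

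**Figure D2:**
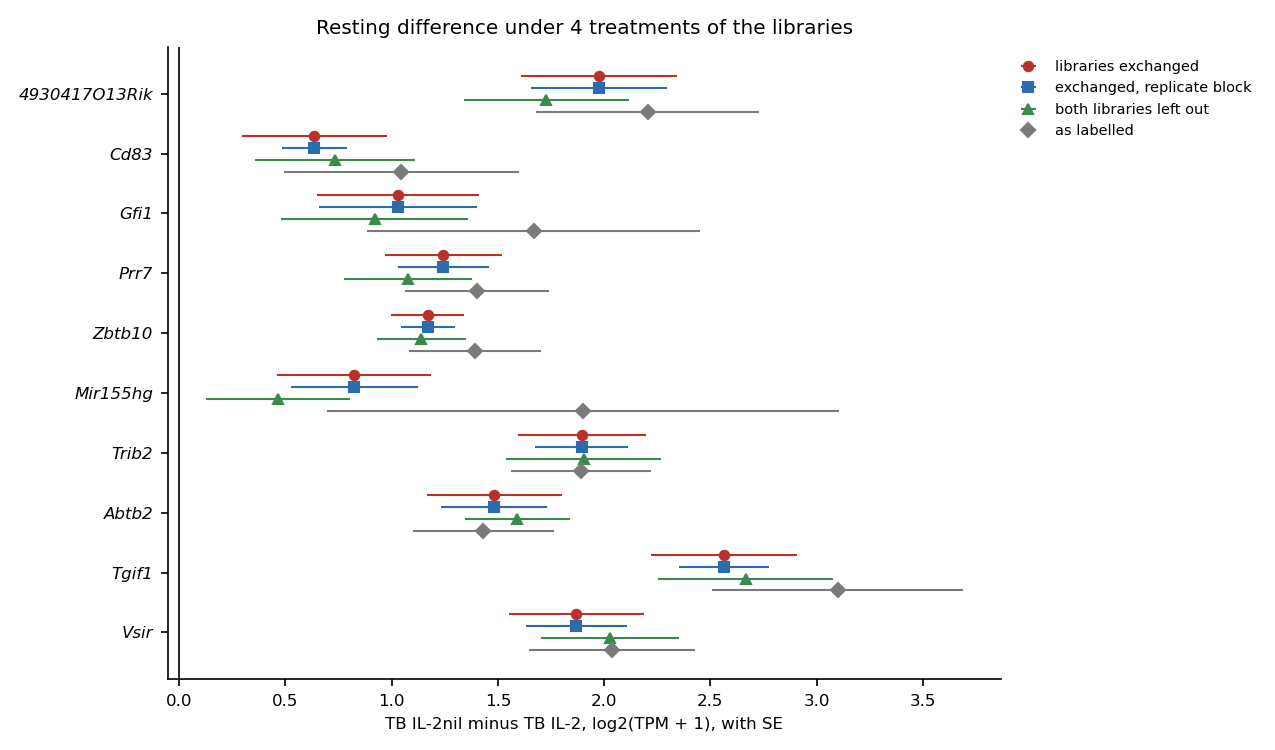
Difference between TB IL-2nil and TB IL-2 in log2(TPM + 1) for each gene, with the SE of the limma fit, for the exchanged placement, the same with a replicate block, without both libraries and as labelled. All points lie to the right of 0, and the errors are widest as labelled, most of all for *Mir155hg* at 1.90.

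B cell markers moved with IL-2 withdrawal as well. The summed level of 5 B cell markers, all above 1 TPM in some library, was 6.04 to 10.96 TPM in TB IL-2 and 24.3 to 30.3 TPM in TB IL-2nil, and 2.36 to 3.69 and 5.66 to 13.3 TPM in TB+ IL-2 and TB+ IL-2nil, where the members were highest. The myeloid and dendritic cell list summed to 2.01 to 4.29 TPM in TB IL-2 and 3.88 to 5.85 TPM in TB IL-2nil. After PMA/I it summed to 2.56 to 3.55 TPM in TB+ IL-2 and 3.76 to 5.55 TPM in TB+ IL-2nil, without overlap. In bulk RNA, a change in the share of a cell type and a change in RNA per cell cannot be told apart. The part of these cells in the results was not tested.

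Of the 3 repressors, *Tgif1* showed the largest resting difference of all members in log2(TPM + 1), while by ratio of means *4930417O13Rik* was ahead (7.42-fold against 6.12-fold). TGIF1 is a homeodomain protein that binds SMAD proteins and holds back the response to TGF-beta. Its gene is found at chr17:71193545-71202886 (minus strand; mm9, GENCODE M1). It stood at 11.8, 5.15 and 12.7 TPM in the TB IL-2 libraries and at 76.2, 53.9 and 51.8 TPM in TB IL-2nil. The groups were far apart, and the difference of 2.56 (SE 0.34) exceeded the spread between cultures (adjusted P = 0.000349). After PMA/I the values were 243, 148 and 160 TPM with IL-2, and 490, 256 and 315 TPM without it. The lowest TB+ IL-2nil library was only slightly above the highest TB+ IL-2 library, and the difference of 0.92 (SE 0.34) was the smallest among the 10 genes. PMA/I thus multiplied the mean by 18.5 in the presence of IL-2 and by 5.84 in its absence.

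*Gfi1* encodes a zinc-finger repressor that recruits histone-modifying cofactors and limits T cell and myeloid differentiation programmes. It is found at chr5:108145674-108155056 (minus strand). At rest it was at 4.87, 12.8 and 7.06 TPM with IL-2 and at 9.68, 24.2 and 19.7 TPM without it. These ranges overlap, and the difference of 1.03 (SE 0.38) gave an adjusted P = 0.0504. It was called in 8 of 24 alternatives, among them the fits without TB IL-2 replicate 2 (1.37, adjusted P = 0.0229), TB IL-2nil replicate 1 (1.39, 0.0156) or TB+ IL-2nil replicate 1 (1.03, 0.047). After PMA/I it reached 109, 114 and 77.3 TPM with IL-2, and 474, 263 and 316 TPM without it. Its level in TB+ IL-2nil exceeded that of 96.9% of genes, from 38.5% in TB IL-2.

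*Zbtb10*, for a BTB zinc-finger repressor of GC-rich promoters, is found at chr3:9250602-9285333 (plus strand). It was the member with the least spread between cultures. In TB IL-2 it stood at 0.985, 0.536 and 0.950 TPM, and in TB IL-2nil at 3.69, 2.40 and 3.23 TPM. All libraries without IL-2 were above all those with it, with a difference of 1.17 (SE 0.17, adjusted P = 0.000553). At 7.07, 6.06 and 5.72 TPM in TB+ IL-2 and 25.5, 21.9 and 21.1 TPM in TB+ IL-2nil, it remained the least abundant of the 10 genes after PMA/I. By replicate number, the TB+ difference was 1.70 to 1.72 in each of 3 pairs.

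*Trib2*, at chr12:15798533-15823683 (minus strand), was already well expressed at rest. TB IL-2 libraries held 36.0, 18.1 and 37.6 TPM and TB IL-2nil libraries 135, 91.8 and 110 TPM. The ranges were apart, and the difference was 1.89 (SE 0.30, adjusted P = 0.000888). After PMA/I it was at 141, 134 and 109 TPM with IL-2 and at 354, 190 and 307 TPM without. Of all 10 genes it had the smallest induction without IL-2, at 2.53-fold in means, against 4.19-fold with IL-2.

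RefSeq promoter windows (GRCm38.p6, 250 bases before to 50 after a start) were on hand for 8 of the 10 genes, in 13 windows. The window of *Trib2* (chr12:15816736-15817035, minus strand) is shown because it held letters of both a calcium-linked and an early-response factor. Capitals mark an EGR motif (GCGTGGG) and an NFAT motif (GGAAA), in that order.
Trib2: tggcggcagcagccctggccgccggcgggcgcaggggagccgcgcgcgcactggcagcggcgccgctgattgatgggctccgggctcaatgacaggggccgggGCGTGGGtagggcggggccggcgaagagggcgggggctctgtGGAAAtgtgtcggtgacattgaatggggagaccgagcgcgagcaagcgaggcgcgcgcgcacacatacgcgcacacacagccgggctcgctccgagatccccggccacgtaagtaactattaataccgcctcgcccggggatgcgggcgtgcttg

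Among the membrane proteins, *Vsir* was the most abundant gene of the 10 in each of the 4 groups, with *Trib2* close to it at rest. VISTA is an immunoglobulin-family receptor that restrains T cells. *Vsir*, named 4632428N05Rik in GENCODE M1, is found at chr10:59809599-59835432 (plus strand). It was at 34.6, 26.8 and 39.9 TPM in TB IL-2 and at 147, 130 and 100 TPM in TB IL-2nil. The ranges were apart, and the difference was 1.87 (SE 0.32, adjusted P = 0.00122). With PMA/I it was at 295, 198 and 142 TPM in TB+ IL-2 and at 822, 436 and 423 TPM in TB+ IL-2nil. In the latter it exceeded 97.9% of genes.

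*Cd83*, at chr13:43880476-43898499 (plus strand), encodes an immunoglobulin-family protein best known from mature dendritic cells and also made by activated lymphocytes. It was low at rest, at 2.63, 1.07 and 0.916 TPM with IL-2 and 4.31, 2.08 and 2.31 TPM without. The ranges overlapped, and the difference of 0.64 (SE 0.34) did not exceed the spread between cultures without the replicate block. Within each of 3 replicate numbers the library without IL-2 was higher, by 0.55 to 0.79. After PMA/I it reached 16.3, 8.14 and 6.73 TPM in TB+ IL-2 and 45.7, 35.8 and 33.0 TPM in TB+ IL-2nil. Of the members it gained most in induction when IL-2 was absent, at 6.75-fold in means with IL-2 and 13.2-fold without.

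*Prr7*, at chr13:55565628-55574516 (plus strand), encodes a proline-rich membrane adaptor. It was at 4.80, 1.89 and 5.13 TPM in TB IL-2 and at 8.66, 9.10 and 13.03 TPM in TB IL-2nil. These ranges were apart, with a difference of 1.24 (SE 0.27, adjusted P = 0.00487). In TB+ IL-2 it was at 14.9, 12.6 and 18.4 TPM, which overlaps TB IL-2nil only through an exchanged library, and the 3 TB+ IL-2nil libraries lay close together at 52.0, 51.8 and 52.5 TPM.

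*Abtb2*, at chr2:103406467-103558580 (plus strand), was at 14.3, 9.35 and 12.2 TPM in TB IL-2 and at 35.8, 39.3 and 29.9 TPM in TB IL-2nil. The difference at rest was 1.48 (SE 0.32, adjusted P = 0.00423), with no overlap. After PMA/I it was at 61.8, 63.2 and 26.7 TPM with IL-2 and at 135, 117 and 81.7 TPM without it. The value of 26.7 TPM came from the library labelled TB IL-2nil replicate 3, and without both exchanged libraries the TB+ difference of 1.19 became 0.79.

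Of the non-coding members, *Mir155hg* was nearly silent at rest and showed the strongest induction. miR-155 is processed from this transcript, is made on activation of lymphocytes, and represses mRNAs that match its seed. In GENCODE M1 the host gene is a lincRNA of 2 exons, named Mir155, at chr16:84713268-84715487 (plus strand), and the hairpin lies within exon 2, from 84714385 to 84714449. Its mature products (RefSeq) are shown with the seed, bases 2 to 8, in capitals. Only the seed of miR-155-5p was searched for in the target genes below, which were listed as known targets and not by the seed.
mmu-miR-155-5p: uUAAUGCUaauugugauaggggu
mmu-miR-155-3p: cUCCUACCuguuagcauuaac

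*Mir155hg* stood at 2.21, 0.883 and 2.50 TPM in TB IL-2 and at 4.36, 1.71 and 7.08 TPM in TB IL-2nil. The ranges overlapped, and the difference was 0.82 (SE 0.36, adjusted P = 0.0916). Without TB IL-2nil replicate 2, the shallowest library, it was 1.25 (adjusted P = 0.0121), and without the library labelled TB+ IL-2 replicate 3 it was 0.46 (adjusted P = 0.312). After PMA/I, TB+ IL-2 libraries held 117, 91.5 and 75.0 TPM, and TB+ IL-2nil libraries 319, 273 and 290 TPM. The ratio of means over rest was 50.7 with IL-2 and 67.1 without. The separate entry for *Mir155* is listed at 0 in all 12 libraries, so the mature microRNA itself was not measured here. The gene to its right, *Mrpl39*, for a mitochondrial ribosomal protein, was at 14.7 to 19.7 TPM in all group means and passed none of 4 comparisons (limma, adjusted P = 0.357 to 0.741), and the gene to its left, *4930529L06Rik*, is listed at 0.

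*4930417O13Rik*, on chromosome 6 in RefSeq and without an entry in GENCODE M1, had the largest TB+ difference of all members. It was at 0.773, 1.22 and 1.25 TPM in TB IL-2 and at 3.07, 10.5 and 10.5 TPM in TB IL-2nil. The groups were apart, although TB IL-2nil replicate 1 lay well below the other 2, and the difference was 1.98 (SE 0.37, adjusted P = 0.00207). After PMA/I it was at 22.4, 32.9 and 17.5 TPM with IL-2 and at 105, 108 and 138 TPM without it, a difference of 2.26 (SE 0.37). After PMA/I its neighbours stood at lower levels than *4930417O13Rik* itself. *Tuba3a*, a tubulin gene to the right, had group means of 0.119 to 4.85 TPM, and *E130112N10Rik*, to the left, 1.83 to 6.84 TPM. At rest the mean of *E130112N10Rik* was 1.83 TPM with IL-2 and 6.84 TPM without it, beside 1.08 and 8.02 TPM for *4930417O13Rik*. Both neighbours were higher in TB IL-2nil than in TB IL-2, by 1.32 (SE 0.32, adjusted P = 0.00825) and 1.48 (SE 0.28, adjusted P = 0.00216). *Tuba3a* also met the whole description by which the members were chosen. PMA/I raised it by 1.12 with IL-2 (adjusted P = 0.0202) and 1.03 without (0.017), and it was higher in TB+ IL-2nil than in TB+ IL-2 by 1.23 (0.0215; limma).

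The promoter windows of these transcripts are shown as the starts of the members with the largest induction and the largest TB+ difference. In that of *4930417O13Rik* (chr6:125265275-125265574, plus strand, GRCm38.p6) capitals mark a STAT5 motif (TTCNNNGAA) that begins 70 bases before the start. In that of *Mir155hg* (chr16:84712773-84713072, plus strand) they mark an NFAT motif on the reverse strand, 12 bases into the transcript.
4930417O13Rik: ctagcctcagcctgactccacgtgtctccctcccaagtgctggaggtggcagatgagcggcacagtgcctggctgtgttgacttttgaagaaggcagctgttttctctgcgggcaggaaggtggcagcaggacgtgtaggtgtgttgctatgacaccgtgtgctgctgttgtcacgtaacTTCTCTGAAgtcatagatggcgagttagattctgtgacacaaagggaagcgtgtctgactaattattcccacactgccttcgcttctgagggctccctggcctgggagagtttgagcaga
Mir155hg: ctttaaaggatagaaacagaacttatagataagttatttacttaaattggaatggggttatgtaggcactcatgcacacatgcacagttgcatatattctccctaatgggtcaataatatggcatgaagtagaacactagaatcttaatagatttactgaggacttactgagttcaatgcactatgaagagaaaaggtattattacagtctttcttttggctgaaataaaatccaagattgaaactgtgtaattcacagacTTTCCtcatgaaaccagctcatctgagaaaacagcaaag

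Over the 13 windows of 8 members, 6 motifs were searched on both strands. NFAT letters (GGAAA) were in 6 of the 13 windows, from 5 members (*Abtb2*, *Gfi1*, *Mir155hg*, *Tgif1* and *Trib2*), beside 61.3% of all 32851 windows. STAT5 letters were in 2 of the 13, from *4930417O13Rik* and *Tgif1* (8.3% of all windows). EGR letters were in 2, from *Trib2* and *Tgif1* (5.04%), and ETS letters (CCGGAA) in 3, from *Gfi1* and *Tgif1* (14.9%). AP-1 (TGANTCA, 7.81%) and FOXO letters (GTAAACA, 3.65%) were in none of them. *Tgif1* has 5 windows and *Gfi1* 2, which gives these genes more room for a match. The letters of the ETS and NFAT motifs can overlap, but did not do so in these windows.

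PMA/I raised all 10 genes in both arms, as the choice required, by a median of 2.35 with IL-2 and of 2.52 without it in log2(TPM + 1), where the medians of all genes were -0.22 and -0.38. Of all genes, 11.8% were higher and 23.3% lower in TB+ IL-2 than in TB IL-2, and 20.1% were higher and 41.1% lower in TB+ IL-2nil than in TB IL-2nil. In TB+ IL-2nil against TB+ IL-2, 8.4% of all genes were higher and 12.9% lower, and the members differed by 0.92 to 2.26, with a median of 1.68 beside 0.04 over all genes. Nothing is read from these counts, since the same values chose the members.

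The TB+ difference of a gene is the sum of its resting difference and of the difference between its 2 inductions. On the log2(TPM + 1) scale the estimated induction was larger without IL-2 in 6 genes, from 0.28 in *4930417O13Rik* to 1.22 in *Cd83*. The estimate was below 0 in *Abtb2* (-0.29, SE 0.45), *Vsir* (-0.48, SE 0.45), *Trib2* (-0.79, SE 0.43) and *Tgif1* (-1.64, SE 0.49), and stayed there in all 23 alternatives. The 95% interval lay wholly below 0 in *Tgif1* alone (-2.71 to -0.57), and wholly above 0 in *Cd83* (0.16 to 2.29) and *Zbtb10* (0.01 to 1.08). In the other 7 genes it included 0, so a difference between the 2 inductions was within its error. These intervals are not adjusted for the number of genes, and they come from values that chose the members. Asking for a higher TB+ level favours estimates above 0, so the intervals are a description and no test. For *Abtb2* the estimate was -0.69 without the library labelled TB IL-2nil replicate 3. For *4930417O13Rik* the direction was not stable, at -0.31 with a pseudocount of 0.1, -0.20 without upper-quartile scaling and -0.20 without TB IL-2nil replicate 1, and as a ratio of means its induction was 22.4-fold with IL-2 and 14.6-fold without. *Zbtb10* too had nearly equal ratios of means, at 7.63-fold and 7.35-fold. In *Cd83*, *Gfi1*, *Prr7* and *Mir155hg* the ratio was larger without IL-2 on both scales.

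Many other genes met the same description. PMA/I raised 1302 genes in both arms at an adjusted P under 0.05, of which 281 were higher and 27 lower in TB+ IL-2nil than in TB+ IL-2. Of the 10 members 9 are among the 281, all but *Tgif1*. The same values chose the members, so this count and the places below are a description and no test. Ranked by TB+ difference, *4930417O13Rik* was at place 2 and *Cd83*, *Gfi1*, *Prr7*, *Zbtb10* and *Mir155hg* at places 5 to 9, while *Vsir*, *Abtb2* and *Trib2* were at places 23, 48 and 71. Of the other 272 genes, 33.5% were higher at rest without IL-2 and 6.62% lower, with a median resting difference of 0.25. In 231 of them the estimated induction was larger without IL-2, by sign alone and whatever its error. Asking for a higher level in TB+ IL-2nil favours both of these directions, so nothing is read from them. The number of such other genes was unstable, to scaling and model as well as to the libraries. It was 7 without upper-quartile scaling, 431 with median-ratio scaling and 570 with the replicate block. It was 71 without both exchanged libraries, 2 as labelled, 84 without the library labelled TB IL-2nil replicate 3, 120 without TB+ IL-2 replicate 2 and 104 without TB+ IL-2nil replicate 1.

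**Figure D3:**
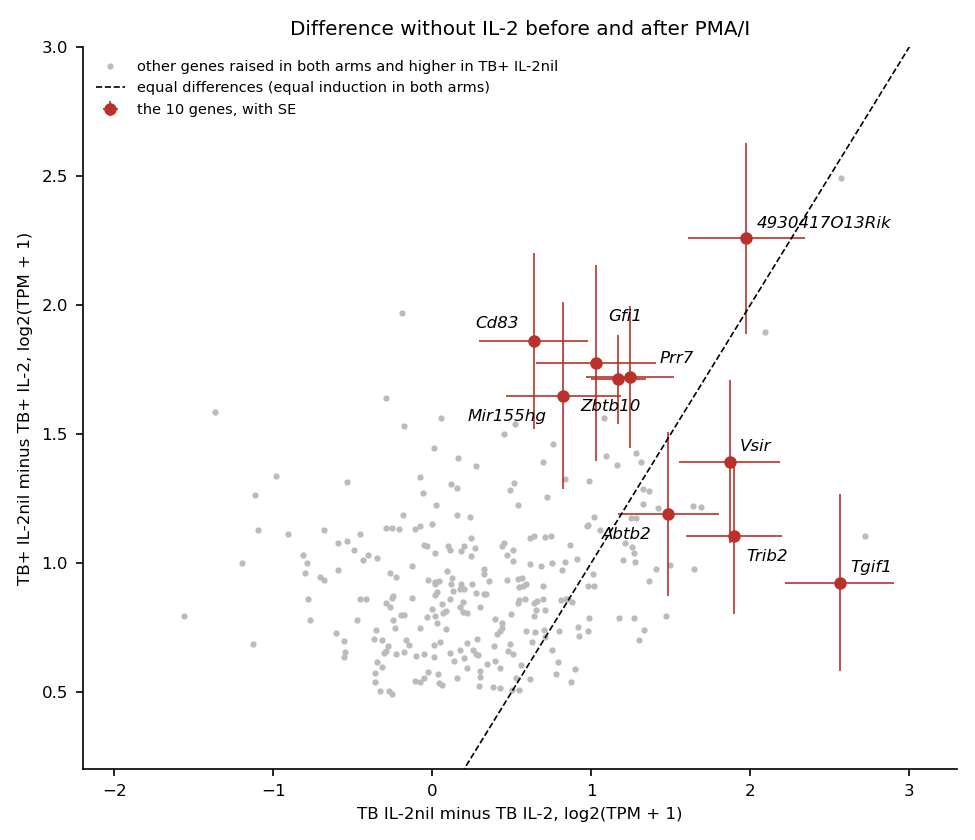
Difference between cells without and with IL-2 at rest (horizontal axis) and after PMA/I (vertical axis), both in log2(TPM + 1). Red points are the 10 genes with SE, grey points the other 272 genes raised in both arms and higher in TB+ IL-2nil, and on the dashed line induction is equal. *Tgif1*, *Trib2*, *Vsir* and *Abtb2* lie below the line, and the other 6 above it.

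The genes whose profile over the 12 libraries was most like the mean standardised profile of the members were *Atg16l2*, *Erbin*, *Itpkc*, *Rnf2* and *Tgoln1* (Pearson r = 0.989 to 0.985, as a description over libraries of 4 groups). They stepped up through the groups in the same order. *Erbin*, for a scaffold protein, had means of 54.9, 103, 172 and 346 TPM, and *Itpkc*, for an inositol trisphosphate kinase, 3.41, 6.72, 17.6 and 35.1 TPM in TB IL-2, TB IL-2nil, TB+ IL-2 and TB+ IL-2nil. Of the members, *Zbtb10* was closest to the mean profile (r = 0.992) and *Trib2* farthest (0.947).

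Genes that work with the members or under them were followed through lists of targets, cofactors and relatives. Of 9 known miR-155 targets, all of them tested, 3 were higher and 0 lower in TB+ IL-2nil than in TB+ IL-2 (limma, adjusted P under 0.05), with a median of 0.76, beside 8.4% higher, 12.9% lower and a median of 0.04 over all genes. *Socs1*, which blocks JAK signalling below cytokine receptors, was higher by 1.94 (SE 0.44, adjusted P = 0.0107), *Jarid2*, a cofactor of Polycomb, by 1.13 (SE 0.20, 0.00331), and *Inpp5d*, the phosphatase SHIP1, by 0.73 (SE 0.23, 0.0411). At rest 4 were higher and 2 lower without IL-2 (22.3% and 17.3% of all genes), led by *Bach1* (1.52), *Maf* (1.49) and *Peli1* (1.46), and by *Socs1*, which fell by 2.03 on the log2 scale. PMA/I raised 4 of the 9 and lowered 2 with IL-2, and raised 6 and lowered 0 without it.

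A match to the seed of miR-155-5p (AGCATTA) was in the 3′ untranslated region of 6 of these 9 genes, by the longest GENCODE M1 transcript. *Maf*, *Peli1* and *Rheb* held none. The share over all genes was not counted, so nothing is read from this number. The sites of the 3 genes that were higher in TB+ IL-2nil are shown with the match in capitals, to set the target beside the microRNA whose host gene PMA/I induced. They lie on mm9 at chr16:10784299-10784321 (minus strand), chr13:45015447-45015469 (plus strand) and chr1:89616398-89616420 (plus strand), the first of 2 matches in *Jarid2* and single matches in the others.
Socs1: ctgccgctgtgccgcAGCATTAa
Jarid2: aactgattttgttttAGCATTAa
Inpp5d: gagatgtttttaaaaAGCATTAa

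Around *Tgif1*, 6 of 11 genes of TGF-beta signalling were higher in TB+ IL-2nil than in TB+ IL-2 and 0 lower, with a median of 0.80, against shares of 8.4% and 12.9% of all genes, whose median was 0.04. The largest were *Smad7*, an inhibitory SMAD (1.41, SE 0.45, adjusted P = 0.0461), *Smad3*, which carries the signal (0.83, SE 0.16, 0.00539), *Tgif2*, the closest relative of *Tgif1* (0.81, SE 0.20, 0.0166), and the receptor gene *Tgfbr1* (0.80, SE 0.22, 0.0271). At rest, 5 were higher and 1 lower without IL-2, among them *Smad7* (1.90), *Tgfbr2* (1.35), *Smad4* (1.08) and the ubiquitin ligase gene *Smurf2* (1.03). PMA/I raised 3 and lowered 1 with IL-2, and raised 4 and lowered 2 without it, with *Tgif2* in front (2.31 and 3.05). Activators and inhibitors of the pathway are both among the genes that were higher.

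Of the 11 tested relatives with a BTB domain, 9 were higher at rest without IL-2 and 0 lower, with a median of 0.81. The shares over all genes tested were 22.3% and 17.3%, and their median was 0.13. They included *Bcl6* (2.24), a repressor that drives follicular helper T cell differentiation, *Btbd11* (2.03) and *Abtb1* (1.70), both relatives of *Abtb2*, and *Zbtb20* (1.68). In TB+ IL-2nil against TB+ IL-2, 4 were higher and 0 lower, namely *Btbd11* (1.53), *Zbtb20* (1.45), *Zbtb2* (0.78) and *Zbtb17* (0.73). PMA/I raised 2 and lowered 3 of them with IL-2, and raised 2 and lowered 5 without, so most relatives did not share the induction of *Zbtb10* and *Abtb2*. The exception in size was *Zbtb32*, raised by 4.51 and 4.72. The count at rest was 5 without TB IL-2nil replicate 1, 5 without upper-quartile scaling and 3 with no filter on low values.

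Of 6 tested GFI1 cofactors, 0 were higher and 1 lower in TB+ IL-2nil, the deacetylase gene *Hdac1* (-0.96, adjusted P = 0.00207), and at rest *Hdac2* and *Hdac1* were lower by -1.08 and -0.77. None of 5 tested genes of the Tribbles pathway passed at rest or after PMA/I between the arms (limma; at an unadjusted P under 0.05, 1 was higher and 1 lower at rest, and 2 higher and 1 lower after PMA/I). However, *Trib1*, a paralogue of *Trib2*, was induced by 5.16 with IL-2 and 6.24 without. Among 7 tested ligand and checkpoint genes around VISTA and CD83, *Cd274* (PD-L1) alone was higher in TB+ IL-2nil, by 1.18 (SE 0.35, adjusted P = 0.0349), and 0 were lower, and at rest 0 were higher and 1 lower, *March8*, a ubiquitin ligase gene (-0.68). PMA/I raised 2 of the 7 (*Cd274* and *Pdcd1lg2*) and lowered 3 in each arm.

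Of 15 well-known PMA/I genes, PMA/I raised 15 with IL-2 and 13 without it. In TB+ IL-2nil against TB+ IL-2, 1 of the 15 was higher, *Egr2*, for an early zinc-finger factor (0.81, SE 0.21, adjusted P = 0.02), which is near the 8.4% of all genes, and 0 were lower, with a median of 0.79. At an unadjusted P under 0.05, 5 of the 15 were higher and 0 lower. At rest, *Dusp2* was higher without IL-2 (1.16), while *Tnf* and *Myc* were lower (-3.01 and -2.48).

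List counts after PMA/I were less stable than the resting values of the members. In all lists together 15 genes were higher in TB+ IL-2nil, 25 with the replicate block, 6 without both exchanged libraries, 2 without upper-quartile scaling and 0 as labelled (13 there at an unadjusted P under 0.05). The count was 7 without the library labelled TB IL-2nil replicate 3, 5 without TB+ IL-2 replicate 2, 6 without TB+ IL-2nil replicate 1 and 9 without TB+ IL-2nil replicate 3. *Cd274* did not pass without any 1 of these 4 libraries. Only 1 TGF-beta gene passed without any 1 of the first 3 of them, and 2 BTB genes passed without any 1 of the last 3. *Egr2* did not pass without TB+ IL-2 replicate 2 or TB+ IL-2nil replicate 1. At rest, 3 TGF-beta genes were higher without TB IL-2 replicate 2, and 2 to 3 of the well-known PMA/I genes without TB IL-2 replicate 1, TB IL-2 replicate 3 or TB IL-2nil replicate 1. With the block, 7 miR-155 targets, 7 TGF-beta genes and 7 BTB genes were higher in TB+ IL-2nil, the same numbers as at an unadjusted P under 0.05.

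**Figure D4:**
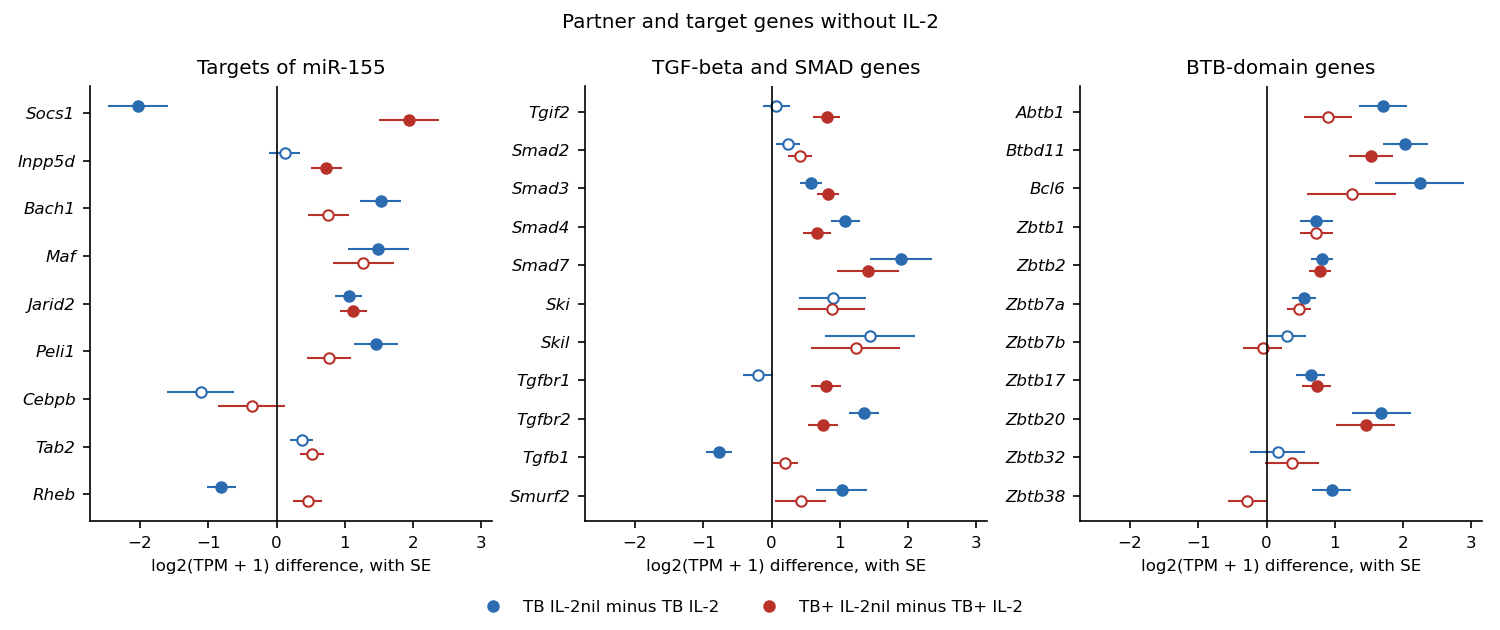
Difference without IL-2 at rest (blue) and after PMA/I (red) in log2(TPM + 1), with SE, for the tested genes of 3 lists. Filled points passed an adjusted P under 0.05 (limma) and open points did not. *Socs1* lies at -2.03 at rest and at 1.94 after PMA/I, while 9 of the 11 BTB genes are filled and above 0 at rest.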

How the data were processed

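The authors sequenced ribosomal RNA-depleted, strand-specific libraries, and per the labels and methods used Trimmomatic 0.32 for trimming, HISAT2 2.1.0 for alignment to mm9 and StringTie 1.3.3 for quantification on RefSeq genes. The deposited values are FPKM values (fragments scaled for gene length and library) for 24439 gene names per library, summing to 193815 to 420487, with no counts, so no counting interval is given. The methods name TPM, but the tables name FPKM.

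Here each library was rescaled to 1000000 TPM, 12442 genes that exceeded 1 TPM in 1 library or more entered the tests, and libraries were scaled to a common 75th percentile. A limma model (version 3.58.1, R 4.3.3) with a mean for each of 4 groups, without block or trend, was fitted to the log2(TPM + 1) values of the 12 libraries, with Benjamini-Hochberg adjustment over all genes tested. The log2(TPM + 1) scale understates changes of low genes. Scaling left a median resting difference of 0.13 over all genes. Sequences and figures were handled in Python 3.11.15 (pandas 2.3.3, matplotlib 3.10.9).

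Members and lists were chosen with earlier results of these data known. From each list, up to 4 genes with the largest difference among those passing were named, together with the 5 genes most like the members and the genes beside the non-coding ones. *Il2* also served to check the labels, and the genes whose response differed between the arms were singled out after their values were seen. Libraries of 1 replicate number, by the labels, deviated together from their group means in all 18 pairs (Pearson r = 0.101 to 0.531, over 0.1 each) in the exchanged placement, so the numbers were taken to pair libraries. The labels do not say what they share. Alternatives were the deposited labels, both exchanged libraries left out, a pseudocount of 0.1, no filter, a filter of 5 TPM, 3 other scalings, short non-coding RNAs left out, the replicate block, a limma trend, the TB libraries alone, and each library left out in turn.

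Gene coordinates are from GENCODE M1, while promoters, microRNAs and neighbours are from RefSeq (GRCm38.p6). *Cd83* and *Zbtb10* had no promoter window.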

Additional observations from a re-analysis of the deposited data

Results flagged for a closer look

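In 3 of the listed genes, the response to PMA/I itself differed between the arms by the interaction term of the limma fit over all genes. The share of all genes with such a difference was not counted, so nothing is read from this number. These 3 were singled out after their values were seen, and their values below are from the exchanged placement alone. For *Socs1* the difference of inductions was 3.96 in log2(TPM + 1) (adjusted P = 0.0125), with group means of 252, 57.9, 91.1 and 371 TPM in TB IL-2, TB IL-2nil, TB+ IL-2 and TB+ IL-2nil, so that PMA/I lowered it with IL-2 and raised it without. For *Myc* it was 3.73 (adjusted P = 0.0209), with means of 130, 19.5, 676 and 1603 TPM. For *Rheb*, a small GTPase that activates mTORC1, it was 1.27 (adjusted P = 0.0426), with means of 49.0, 27.5, 146 and 204 TPM. All 3 fell at rest when IL-2 was withdrawn, unlike the 10 members. The cause was not tested.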

How the results depend on the processing

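The resting differences of the 10 genes stayed above 0 in all 24 alternatives. As labelled, 0 genes passed at rest and 0 passed with a change over 3-fold, while 6 of all genes were higher at rest, 4 were higher in TB+ IL-2nil, and 0 list genes were. Without both exchanged libraries, 6 list genes and 325 of all genes were higher in TB+ IL-2nil, against 15 and 1045. Without upper-quartile scaling the counts were 2 and 58, and 1430 genes were higher at rest against 2773. With the replicate block they were 25 and 1941, and at rest 10 members and 3666 of all genes were higher. Leaving out 1 library gave 5 to 18 list genes and 412 to 1082 of all genes higher in TB+ IL-2nil, 7 to 8 members higher at rest, 3 to 5 over 3-fold, 5 to 6 members with a larger induction without IL-2, and a median TB+ difference of 1.55 to 1.75. The block changed no other call on a member. All 230 TB+ differences of members were above 0. The causes were not tested. With 3 libraries a group and depths that differ 3.05-fold, resting levels near 1 TPM are the least certain values, and the result at rest depends on accepting that 2 libraries carry each other's labels.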
